A study of Mus musculus with 12 samples.

Results

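The genes of MHC class II presentation were followed in common lymphoid progenitors (CLPs) that carried, lacked or re-expressed the long noncoding RNA *Firre*. They are 10 of the 47643 genes in the deposited expression table and were found by their symbols: the classical chains *H2-Aa*, *H2-Ab1* and *H2-Eb1*, the invariant chain *Cd74*, the peptide exchange chains *H2-DMa*, *H2-DMb1* and *H2-DMb2*, the exchange inhibitor chains *H2-Oa* and *H2-Ob*, and the transactivator *Ciita*. All 10 passed the filter on low values. CLPs were sorted from the bone marrow of male mice aged 27 to 32 weeks, 1 library for each mouse. The 4 WT libraries came from mice with an intact *Firre* locus. The 4 ∆*Firre* libraries (KO in the labels) came from mice that lack the gene body and promoter of *Firre*, a germline deletion obtained by crossing a floxed line with CMV-Cre mice and kept on C57BL/6J. The 4 *Firre* rescue libraries (Rescue in the labels) came from ∆*Firre* mice with 2 further alleles, a doxycycline-inducible *Firre* cDNA transgene and CAG-rtTA3, fed a doxycycline diet. The sources used here do not say that WT and ∆*Firre* mice received that diet, so the diet, rtTA3 and the transgene cannot be told apart. The study's CAG-rtTA3 line carries FVB in its strain name and was kept by breeding to C57BL/6J females. Any difference in strain background cannot be told apart from these either.

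MHC class II molecules show peptides from endosomes to CD4 T cells. An alpha chain and a beta chain pair in the endoplasmic reticulum with the invariant chain, which fills the peptide groove and guides the complex to endosomes. There proteases cut the invariant chain down to a short peptide, H2-DM swaps that peptide for others, and H2-DO holds H2-DM back in B cells and some dendritic cells. CIITA binds no DNA itself and works through RFX, CREB and NF-Y proteins seated on an X box and a Y box before each class II gene. In the bone marrow the pathway is known mainly from B-lineage cells and dendritic cells, while lymphoid progenitors carry little of it at the surface.

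Promoter stretches of H2 members are shown because the X and Y boxes are the known binding place of the complex that CIITA joins, and 5 of the 7 members with a promoter sequence held letters of both. On mouse build GRCm38.p6, the 8 H2 members lie within chr17:34092379-34316674. A promoter sequence (250 bases before to 50 bases after a transcription start, from RefSeq) was given for 7 of the 10 members. Each stretch below reads 5′ to 3′ on the strand of its gene, with an X box core spelled GNAAC and the Y box ATTGG in capitals.
H2-Oa: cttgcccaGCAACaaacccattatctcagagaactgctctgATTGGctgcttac
H2-DMb2: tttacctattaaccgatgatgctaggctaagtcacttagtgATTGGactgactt
H2-DMb1: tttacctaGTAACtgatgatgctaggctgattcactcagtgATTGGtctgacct
H2-Ob: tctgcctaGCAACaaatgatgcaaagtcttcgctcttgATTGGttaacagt
H2-Aa: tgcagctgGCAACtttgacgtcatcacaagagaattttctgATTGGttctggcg
H2-Eb1: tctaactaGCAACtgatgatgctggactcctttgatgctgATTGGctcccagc

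All stretches but that of *H2-Aa* lie on the plus strand, *H2-Oa* at chr17:34092295-34092348, *H2-DMb2* at chr17:34145118-34145171, *H2-DMb1* at chr17:34153089-34153142, *H2-Ob* at chr17:34238810-34238860 and *H2-Eb1* at chr17:34305768-34305820, and *H2-Aa* lies on the minus strand at chr17:34287859-34287912. Between the core and the Y box lay 25 bases in *H2-Ob*, 27 in *H2-Eb1* and 28 in *H2-Oa*, *H2-DMb1* and *H2-Aa*. The Y box began from 43 bases (*H2-Oa*) to 90 bases (*H2-DMb2*) before the start. AGNNAC followed after 15 to 40 bases by ATTGG, searched on both strands, was found in 4 of the 7 members (*H2-Oa*, *H2-DMb1*, *H2-Ob*, *H2-Eb1*) and in 4.66% of all 32851 promoters of that length. The spelling GNAAC, chosen after the sequences were seen and overlapping AGNNAC, added *H2-Aa* for 5 of 7, against 4.23% of all promoters. *H2-DMb2* is printed beside *H2-DMb1* because its stretch is similar, but it holds neither core spelling at the searched distance from the Y box. ATTGG alone was found on the strand of the gene in all 7 members and, on either strand, in 37.4% of all promoters. *H2-DMa* has 2 listed starts, and neither window held the pair of boxes. A match is a description of the letters and no evidence of binding in these cells.

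Reads recovered from the table ranged from 10980962 to 18156386 in WT, 14355846 to 17577299 in ∆*Firre* and 25753090 to 32542214 in *Firre* rescue. *Firre* stood at 26.4, 31.6, 25.2 and 30.2 TPM (a length-scaled share of the reads of a library) in WT, was listed at 0 in the 4 ∆*Firre* libraries, and stood at 59.9, 135, 63 and 174 TPM in *Firre* rescue, as labelled. All rescue libraries come from 1 range of library numbers that holds no other group, and WT and ∆*Firre* share the remaining ranges, a lower and a higher, with 2 libraries of each in both, so the rescue condition and the library range cannot be told apart. The labelled cell type was checked against *Il7r* (353 to 525 TPM) and *Flt3* (506 to 709 TPM), which were high in all 12 libraries. Of the 8 CLP markers they come from, *Ly6d* and *Rag1* were higher and *Kit* lower in *Firre* rescue than in both other groups, as given below. The 5 basophil and mast cell markers summed to 1032 to 8867 TPM in WT, 2889 to 4243 TPM in ∆*Firre* and 63.5 to 142 TPM in *Firre* rescue. The neutrophil genes *S100a8* and *S100a9* were below 1 TPM in WT replicate 6, ∆*Firre* replicate 8 and *Firre* rescue replicate 3.

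TPM divides reads by gene length and can be compared between genes. *H2-Ob*, the beta chain of H2-DO, had the highest TPM of the 10 members in all 3 groups, with a mean of 338 ± 86.7 TPM for WT, of 365 ± 67.3 TPM for ∆*Firre* and of 381 ± 19.3 TPM for *Firre* rescue (SD, n = 4 each). It made up 26% to 44.6% of the members' summed TPM in a library, and its mean over the 12 libraries was above that of 97.8% of the genes tested. *Cd74* came next in WT (246 ± 70.5 TPM) and ∆*Firre* (226 ± 33 TPM), ahead of *H2-DMa* (158 ± 14.4 and 126 ± 6.38 TPM). In *Firre* rescue this order was turned, with *H2-DMa* at 190 ± 24.8 TPM and *Cd74* at 151 ± 44.9 TPM, though their ranges overlapped. The 3 classical chains lay close together at means of 51.4 to 84.5 TPM in the 3 groups, and their ranges overlapped in WT and in ∆*Firre*. In *Firre* rescue *H2-Ab1* lay above *H2-Aa* in every library, while *H2-Aa*, *H2-DMb1* and *H2-Eb1* overlapped. In WT and ∆*Firre* there followed *H2-DMb1*, *H2-Oa* and *H2-DMb2*, and *Ciita* was lowest in every group at means of 2.79 to 4.46 TPM. *H2-Ea*, the alpha partner of *H2-Eb1*, was listed at 0 in all 12 libraries, and the b haplotype of C57BL/6 mice is known to lack its expression.

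**Figure D1:**
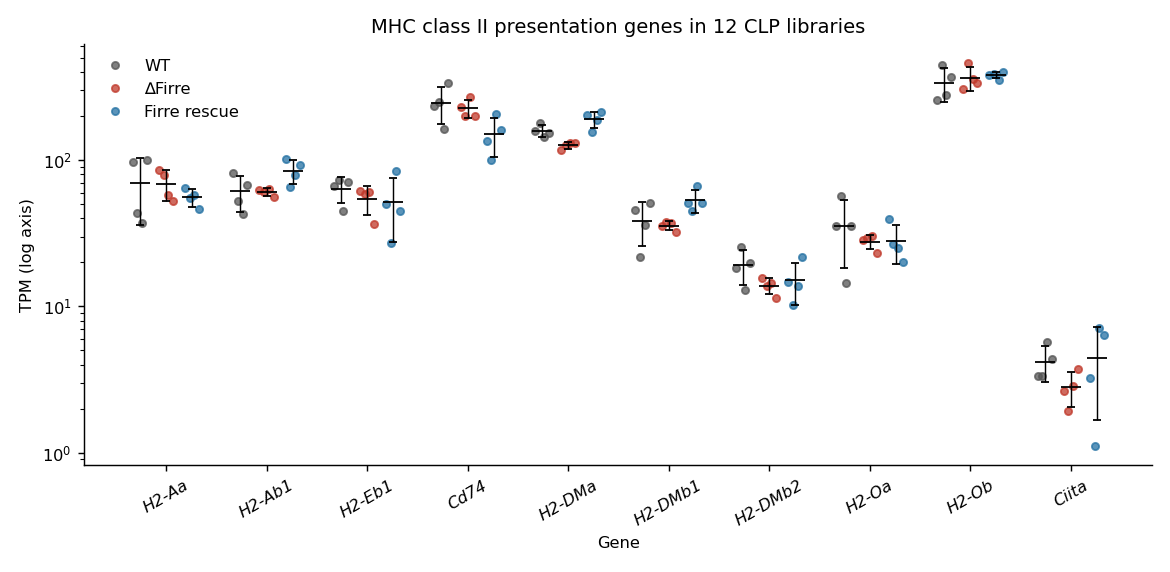
TPM (log axis) of the 10 members in each of the 12 libraries, by group; points are libraries, the bar is the mean and the whisker the SD of 4 libraries. *H2-Ob* stands highest at 259 to 460 TPM and *Ciita* lowest at 1.11 to 7.09 TPM, and in *Cd74* the rescue points reach down to 99.4 TPM.

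The members' sum hardly separated the groups. It was 997, 1153, 781 and 1205 TPM in WT, 947, 1069, 1028 and 882 TPM in ∆*Firre*, and 1044, 875, 1081 and 1053 TPM in *Firre* rescue. The ranges of the 3 groups overlapped. *H2-Ob* alone makes up 26% to 44.6% of this sum in a library, so the sum does not measure the other members by themselves. Because these are bulk libraries, a smaller share of cells that express a gene and less RNA of it per cell cannot be told apart.

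The 3 comparisons were read from 1 limma fit over 14479 genes on log2(TPM + 1), with calls at a Benjamini-Hochberg adjusted p of 0.1 over all those genes. ∆*Firre* against WT asks what differed with the deletion, and *Firre* rescue against WT how far the rescue mice stood from intact ones. *Firre* rescue against ∆*Firre* asks what differed with the rescue condition as a whole, in which transgene, rtTA3, diet and library range cannot be told apart. In ∆*Firre* against WT none of the 10 members was called by limma, where 0.0207% of all genes tested were. Limma-voom on the recovered reads called 0 of all 14479 genes in that comparison, so its lack of member calls says nothing about the members. At an unadjusted p under 0.05, 1 member passed (*H2-DMa*), where 5.30% of all genes did. In *Firre* rescue against ∆*Firre*, 3 of 10 members were called, *H2-DMa* and *H2-DMb1* higher and *Cd74* lower, where 27.9% of all genes were called (8.58% higher and 19.3% lower). In *Firre* rescue against WT, 2 of 10 were called, *H2-Ab1* higher and *Cd74* lower, where 24.3% of all genes were (4.82% higher and 19.4% lower). The groups did not overlap for 1, 3 and 0 members, where that held for 5.33%, 21.9% and 18.0% of all genes. All these shares are near the background, so the counts are no result about class II genes as a group. The median log2 difference over the members was -0.15, 0.07 and -0.14 in the 3 comparisons, against -0.06, -0.16 and -0.21 over all genes tested. Each pair of these comparisons shares 4 libraries, and their values are given side by side only.

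**Figure D2:**
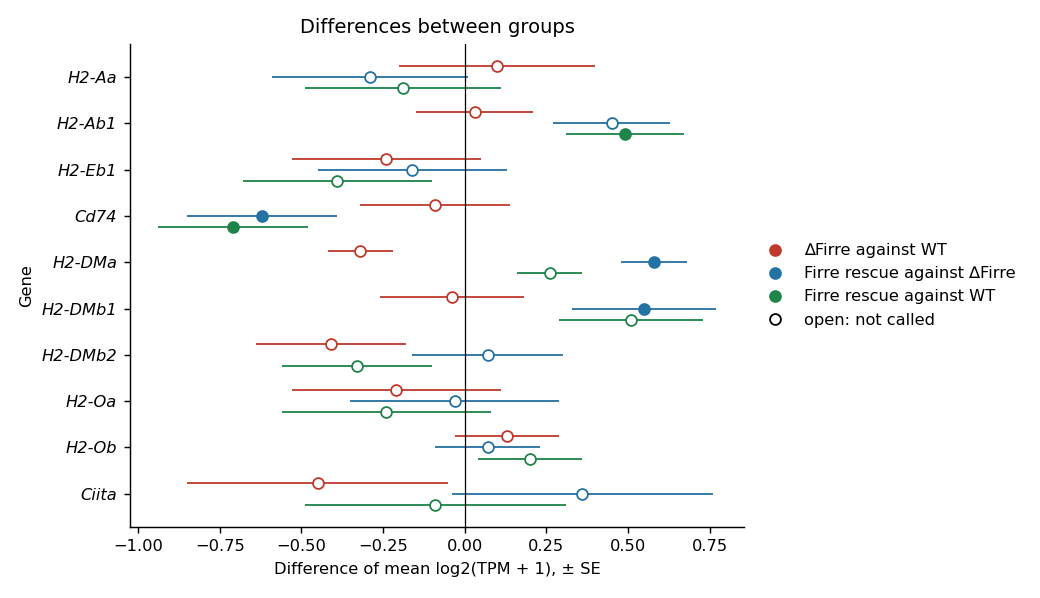
Difference of mean log2(TPM + 1) for each member (x axis, whiskers ± SE of the limma fit) in the 3 comparisons, with filled points for genes called at an adjusted p of 0.1. Filled points are *Cd74* at -0.62 and -0.71, *H2-DMa* at 0.58, *H2-DMb1* at 0.55 and *H2-Ab1* at 0.49, and none belongs to ∆*Firre* against WT.

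*H2-DMa*, the alpha chain of the peptide exchange molecule, had the smallest adjusted p of any member. In WT its libraries stood at 157, 178, 144 and 154 TPM. In ∆*Firre* they stood at 117, 126, 131 and 130 TPM, and in *Firre* rescue at 204, 156, 187 and 212 TPM. All 4 ∆*Firre* libraries lay below all WT and all rescue libraries, whereas WT and rescue overlapped. The log2 difference of *Firre* rescue against ∆*Firre* was 0.58 ± 0.10 (SE, limma, adjusted p = 0.00291), and the gene was called in all 25 alternatives to this fit, with log2 differences from 0.34 to 0.70 and adjusted p from 0.000336 to 0.0226. The lowest of these, 0.34, was the value with GC correction. In ∆*Firre* against WT the log2 difference was -0.32 ± 0.10 (SE, limma, unadjusted p = 0.00768, adjusted p = 0.889), which was not called, and groups that do not overlap were found for 5.33% of all genes tested. The log2 difference of ∆*Firre* minus WT was -0.42 within the lower range of library numbers they share and -0.23 within the higher. In *Firre* rescue against WT the log2 difference was 0.26 ± 0.10 (SE, limma, adjusted p = 0.108), called without WT replicate 8 (0.31, adjusted p = 0.0697) and without *Firre* rescue replicate 2 (0.35, adjusted p = 0.0261). It was also called with median-ratio rescaling (0.44, limma adjusted p = 0.00705), quantile normalization (0.34, adjusted p = 0.031) and limma-voom (0.39, adjusted p = 0.0281), and was 0.11 with GC correction (adjusted p = 0.393).

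The beta chains of H2-DM are encoded by a pair of similar genes. *H2-DMb1* stood at 45.8, 21.8, 35.9 and 50.8 TPM in WT, 35.4, 37.8, 37.1 and 32.5 TPM in ∆*Firre*, and 51, 44.6, 66.8 and 50.8 TPM in *Firre* rescue. The rescue libraries lay above all ∆*Firre* libraries and overlapped WT. Its log2 difference of *Firre* rescue against ∆*Firre* was 0.55 ± 0.22 (SE, limma, adjusted p = 0.0924), and against WT it was 0.51 ± 0.22 (SE, limma, adjusted p = 0.13). The call against ∆*Firre* was lost without WT replicate 10, without any 1 of the ∆*Firre* libraries and without *Firre* rescue replicate 1, 3 or 4. The log2 differences in those fits were 0.44 to 0.58 (limma, adjusted p of 0.115 to 0.192). Against WT the difference ranged from 0.26 to 0.66 with 1 library left out, and the gene was called without WT replicate 11 (0.66, limma adjusted p = 0.071). GC correction (0.43, limma adjusted p = 0.246) and no filter (0.55, adjusted p = 0.165) also ended the call against ∆*Firre*, whereas median-ratio rescaling (0.69, adjusted p = 0.0493), quantile normalization (0.66, adjusted p = 0.0597) and limma-voom (0.61, adjusted p = 0.0668) gave a call against WT. The call against ∆*Firre* was also lost (0.53, adjusted p = 0.102) when TPM was recomputed without *Firre*, the basophil markers and the immunoglobulin genes, a setting chosen after seeing the data. *H2-DMb2* stood at 18.3, 25.6, 13 and 19.7 TPM in WT, 15.7, 13.9, 14.4 and 11.5 TPM in ∆*Firre*, and 14.7, 10.2, 13.8 and 21.7 TPM in *Firre* rescue. The 3 groups overlapped, and no comparison of *H2-DMb2* was called (log2 differences of -0.41 ± 0.23, 0.07 ± 0.23 and -0.33 ± 0.23, SE). The coding sequences of the pair, of 786 bases each, are identical at 95.9% of positions in an older annotation, and 47.9% of the 50-base windows of *H2-DMb1* also occur in *H2-DMb2*. How the authors' counting treated reads that fit both genes was not given in the sources used here, so the split between the pair is uncertain.

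*Cd74*, the invariant chain, was the only member called in both rescue comparisons. In WT its libraries stood at 234, 250, 164 and 335 TPM, and in ∆*Firre* at 232, 201, 270 and 201 TPM. In *Firre* rescue they stood at 136, 99.4, 206 and 161 TPM. All rescue libraries but replicate 3 lay below every WT and ∆*Firre* library, and replicate 3, at 206 TPM, lay within the range of both. The log2 difference of *Firre* rescue against ∆*Firre* was -0.62 ± 0.23 (SE, limma, adjusted p = 0.0754), and against WT it was -0.71 ± 0.23 (SE, limma, adjusted p = 0.0527). The call against ∆*Firre* was lost without any 1 of the ∆*Firre* libraries and without *Firre* rescue replicate 1, 2 or 4, at log2 differences of -0.68 to -0.44 (limma, adjusted p of 0.105 to 0.18). The call against WT was lost without WT replicate 8 or 11 and without *Firre* rescue replicate 1 or 2, at -0.68 to -0.52 (limma, adjusted p of 0.106 to 0.144). The difference stayed below 0 in all 25 alternatives of each comparison, and with GC correction it was -0.93 against ∆*Firre* (limma adjusted p = 0.00954). Both calls were lost with median-ratio rescaling (-0.50 and -0.52, adjusted p of 0.102 and 0.117) and with no filter on low values (adjusted p of 0.147 and 0.111), and the call against WT was lost with only the 2 groups fitted (adjusted p = 0.128). ∆*Firre* and WT differed by -0.09 ± 0.23 (SE, limma, adjusted p = 1). Of the exon bases of *Cd74*, 12 overlap another annotated gene on the same strand.

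Some markers of cell types that carry class II were also called in the rescue comparisons. Of all genes tested, 27.9% were called against ∆*Firre* and 24.3% against WT, and no marker list was tested against these shares. Of 7 B cell markers, 5 were tested, and in both rescue comparisons 2 rose (*Cd79a* and *Cd79b*) and *Ms4a1* fell. The list summed to 207 to 311 TPM in WT, 253 to 309 TPM in ∆*Firre* and 462 to 766 TPM in *Firre* rescue, while *Fcer2a* and *Cr2* of mature B cells were at or below 1.24 TPM in every library. Of the 7 conventional dendritic cell markers, 4 were tested, and *Itgax* and *Clec9a* fell in both rescue comparisons. That list summed to 51.6 to 67.4 TPM in WT, 58.7 to 75.7 TPM in ∆*Firre* and 36.6 to 48.7 TPM in *Firre* rescue, with *Clec9a* at or below 0.654 TPM in the rescue libraries. Of the 5 plasmacytoid dendritic cell markers, 4 were tested and *Klk1* was listed at 0 throughout. *Cox6a2* rose in both rescue comparisons, and against ∆*Firre* *Bst2* rose and *Ccr9* fell, with a summed TPM of 443 to 567 in WT, 457 to 499 in ∆*Firre* and 550 to 726 in *Firre* rescue. Group 2 innate lymphoid cell markers, 4 of 7 tested, all fell in both rescue comparisons, from a summed TPM of 93.9 to 129 in WT and 84.9 to 117 in ∆*Firre* to 33.9 to 63.4. Among the 8 CLP markers, *Ly6d* and *Rag1* rose and *Kit* fell in both. None of the 6 tested monocyte and macrophage markers was called in any comparison. Of 6 neutrophil markers *Mpo* fell in both rescue comparisons, of 2 tested T cell markers *Trac* fell in both, and of 4 red cell markers *Hba-a2* rose against WT. The sort took lineage-negative cells, and the lineage antibodies in the study's bone marrow staining include those against CD3, Gr-1, B220, Ter-119 and CD11b of T cells, granulocytes, B cells, red cells and myeloid cells. The part of any such cells in the differences of *Cd74* and of the other members was not tested.

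Among the classical chains, *H2-Ab1*, the beta chain of the I-A molecule, stood at 81.5, 52.3, 42.8 and 67.5 TPM in WT, 62.9, 60.8, 63.6 and 55.6 TPM in ∆*Firre*, and 101, 65, 79.6 and 92.6 TPM in *Firre* rescue. Every rescue library lay above every ∆*Firre* library, a separation seen for 21.9% of all genes tested in that comparison, and WT overlapped both. Against WT the log2 difference of *Firre* rescue was 0.49 ± 0.18 (SE, limma, adjusted p = 0.0891), and against ∆*Firre* it was 0.45 ± 0.18 (SE, limma, adjusted p = 0.102), just short of the threshold. The call against WT was lost without any 1 library other than WT replicate 6 and *Firre* rescue replicate 2, at log2 differences of 0.33 to 0.55 (limma, adjusted p of 0.103 to 0.226). Against ∆*Firre* the gene was called without WT replicate 6 or 10 or *Firre* rescue replicate 2 (0.45 to 0.57, adjusted p of 0.0525 to 0.0692). With GC correction the differences were 0.38 against WT (limma adjusted p = 0.172) and 0.27 against ∆*Firre* (adjusted p = 0.362), and neither was called, whereas median-ratio rescaling, quantile normalization and limma-voom gave a call against ∆*Firre* (adjusted p of 0.0419, 0.0664 and 0.0522). *H2-Aa*, the alpha chain of the same molecule, stood at 96.9, 43.7, 37.2 and 99.9 TPM in WT, 85.8, 79.5, 58.1 and 52.6 TPM in ∆*Firre*, and 64.7, 54.8, 57.3 and 46 TPM in *Firre* rescue. The WT libraries fell into a high and a low pair that enclosed all other libraries, and no comparison was called (log2 differences of 0.10, -0.29 and -0.19, each ± 0.30 SE). The annotated exons of *H2-Aa* and *H2-Ab1* overlap by 17 bases on opposite strands.

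*H2-Eb1*, the beta chain of the I-E molecule, stood at 66.4, 72.8, 45.1 and 71.1 TPM in WT, 61.8, 58.3, 60.4 and 36.5 TPM in ∆*Firre*, and 50.1, 27.1, 83.7 and 44.6 TPM in *Firre* rescue. The rescue libraries held both the lowest and the highest value of the series. No comparison was called (log2 differences of -0.24, -0.16 and -0.39, each ± 0.29 SE, adjusted p of 1, 0.74 and 0.377 in limma), but *Firre* rescue against WT was called without *Firre* rescue replicate 3 (-0.66, adjusted p = 0.0833) and was -0.13 without *Firre* rescue replicate 2 (adjusted p = 0.767). With 1 library left out, ∆*Firre* against WT ranged from -0.39 to -0.06, and -0.06 was the value without ∆*Firre* replicate 12.

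The H2-DO chains showed no called difference. *H2-Ob* stood at 259, 448, 279 and 367 TPM in WT, 305, 460, 361 and 336 TPM in ∆*Firre*, and 380, 390, 354 and 398 TPM in *Firre* rescue. The rescue values lay inside the range of WT, and the log2 differences were 0.13, 0.07 and 0.20, each ± 0.16 (SE). The log2 difference of ∆*Firre* minus WT was -0.29 within the lower range of library numbers and 0.55 within the higher, so the 2 ranges differed in sign. The same held for *Cd74* (-0.21 and 0.04), *H2-Ab1* (0.09 and -0.02), *H2-DMb1* (0.11 and -0.20) and *H2-Oa* (-0.60 and 0.19), whereas the other 5 members kept 1 sign. *H2-Oa*, the alpha chain, stood at 35.7, 57.1, 14.4 and 35.2 TPM in WT, 28.3, 29.3, 30.3 and 23.2 TPM in ∆*Firre*, and 39.7, 26.6, 25.1 and 20 TPM in *Firre* rescue. The WT range enclosed both other groups, with log2 differences of -0.21, -0.03 and -0.24, each ± 0.32 (SE).

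*Ciita*, the transactivator of the family, had 61 to 394 reads in a library, and 61 was the lowest count of any member in any library. Its WT libraries stood at 3.32, 3.36, 5.75 and 4.34 TPM, and its ∆*Firre* libraries at 2.65, 1.93, 2.85 and 3.74 TPM. The rescue libraries stood at 3.23, 1.11, 7.09 and 6.42 TPM and spanned both other groups. No comparison was called (log2 differences of -0.45, 0.36 and -0.09, each ± 0.40 SE, adjusted p of 0.998, 0.554 and 0.908 in limma), and at this spread a change of the size seen in *H2-DMa* was not detectable for *Ciita*. With 1 library left out, its difference of *Firre* rescue against ∆*Firre* ranged from 0.11 to 0.76.

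Ratios within a library do not depend on how libraries are scaled against each other. They were chosen after the values were seen and carry no test. *Cd74* to *H2-Ab1* was 2.87, 4.79, 3.83 and 4.97 in WT, 3.7, 3.31, 4.25 and 3.61 in ∆*Firre*, and 1.35, 1.53, 2.59 and 1.74 in *Firre* rescue. Every rescue library lay below every other library. *H2-DMa* to *Cd74* ranged from 0.46 to 0.88 in WT and from 0.483 to 0.649 in ∆*Firre*, and all rescue libraries lay above these at 1.5, 1.57, 0.908 and 1.32. *H2-Aa* to *H2-Ab1* ranged from 0.497 to 0.842 in *Firre* rescue, from 0.836 to 1.48 in WT and from 0.913 to 1.36 in ∆*Firre*. The 2 chains of I-A thus lay nearly apart in their ratio, with 1 WT library (0.836) below the highest rescue library. *H2-DMb1* to *H2-DMb2* was 2.5, 0.852, 2.76 and 2.58 in WT, 2.25 to 2.83 in ∆*Firre* and 2.35 to 4.83 in *Firre* rescue, and only WT replicate 8 had more *H2-DMb2* than *H2-DMb1*. *H2-Ob* to *H2-Oa* overlapped between all groups, at 7.25 to 19.4 in WT, 10.8 to 15.7 in ∆*Firre* and 9.57 to 19.9 in *Firre* rescue.

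**Figure D3:**
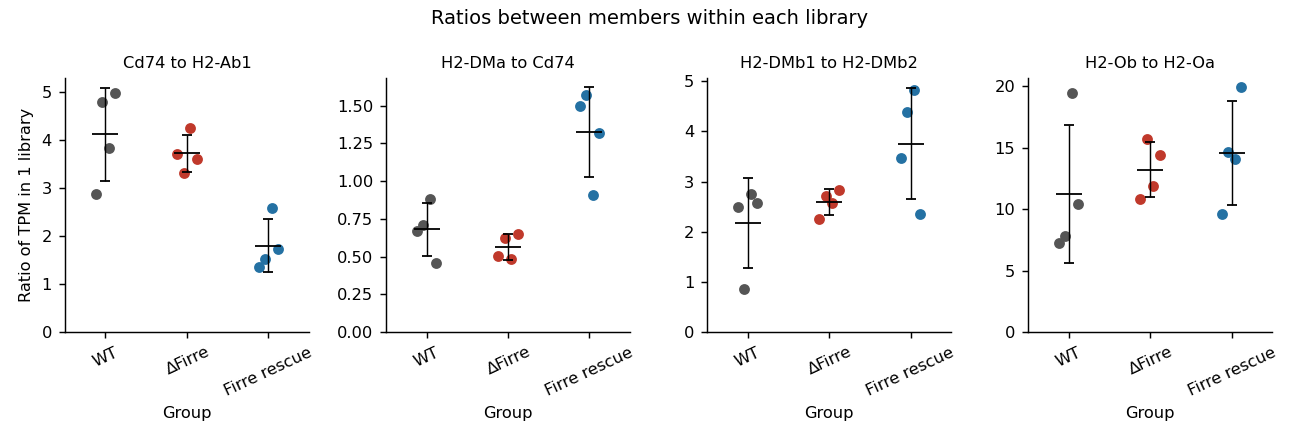
Ratio of the TPM of 2 members within each library (y axis from 0) for 4 pairs, by group; points are libraries, bars the mean and whiskers the SD of 4 libraries. *Cd74* to *H2-Ab1* is at most 2.59 and *H2-DMa* to *Cd74* at least 0.908 in the rescue libraries, apart from all other libraries, while *H2-Ob* to *H2-Oa* overlaps.

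After the group means were taken out, the correlation of log2(TPM + 1) over the 12 libraries was highest for *H2-Eb1* with *Cd74* (Pearson's r = 0.83), *H2-DMa* with *H2-DMb2* (0.76) and *H2-Aa* with *H2-Ab1* (0.73), out of 45 pairs. *Ciita* correlated best with *Cd74* (0.50). The lowest values were those of *H2-DMb1* with *H2-Ob* and of *H2-Oa* with *Ciita* (-0.44 each), and the H2-DM partners *H2-DMa* and *H2-DMb1* stood at -0.22. The points share libraries and depth, and the values are descriptions. The 5 genes outside the list whose log2(TPM + 1) was most like the mean of *H2-Aa*, *H2-Ab1*, *H2-Eb1* and *Cd74* over the 12 libraries were *Zfp952* and *Arl4d* (r = 0.87 each), *Plcb2* (0.85), and *Arrb1* and *Tmem189* (0.84 each). Here the group means were not taken out. These genes are the highest picked from all other genes tested, and whether such values arise by chance was not tested.

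The lists that follow are read beside the 27.9% of all genes called in *Firre* rescue against ∆*Firre* (8.58% higher and 19.3% lower) and the 24.3% called against WT, and no list was tested against these shares. Of 7 genes for the RFX, NF-Y and CREB proteins that work with CIITA on the X and Y boxes, 1 was called against ∆*Firre* and 2 against WT. *Creb1* fell in *Firre* rescue against ∆*Firre* and against WT (log2 differences of -0.42 ± 0.11 and -0.53 ± 0.11, SE, limma adjusted p of 0.0197 and 0.00735). *Rfx5* was called lower against WT (-0.41 ± 0.15, SE, adjusted p = 0.077 in limma) but not against ∆*Firre*, where it stood at -0.10. Its call against WT was lost in 7 of 12 fits without 1 library. The other 5, *Rfxap*, *Rfxank*, *Nfya*, *Nfyb* and *Nfyc*, were not called in any comparison.

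Of 7 regulators of *Ciita*, 3 rose and 1 fell in *Firre* rescue against ∆*Firre*, where 8.58% of all genes rose and 19.3% fell. *Pax5*, the B-lineage factor, stood at 14.3, 18.3, 24.7 and 28.9 TPM in WT, 16.5, 20.6, 14.7 and 21.7 TPM in ∆*Firre*, and 44.7, 41.2, 65.8 and 60.3 TPM in *Firre* rescue. All rescue libraries lay above all others, with log2 differences of 1.47 ± 0.22 against ∆*Firre* and 1.28 ± 0.22 against WT (SE, limma adjusted p of 0.00119 and 0.00316). *Usf1*, an E-box factor of the interferon-driven *Ciita* promoter, rose in both (0.94 ± 0.17 and 0.50 ± 0.17, SE, limma adjusted p of 0.00367 and 0.0678), the second call being lost in 6 of 12 fits without 1 library. *Irf8* was called higher against ∆*Firre* (0.36 ± 0.14, SE, adjusted p = 0.0911 in limma) but was not called against WT. Its call against ∆*Firre* was lost in 8 of 12 fits without 1 library. *Prdm1*, the repressor of *Ciita* in plasma cells, fell against ∆*Firre* (-1.57 ± 0.41, SE, limma adjusted p = 0.0197), and beside it the plasma cell marker *Jchain* stood at 619 to 1296 TPM in WT, 1369 to 3110 TPM in ∆*Firre* and 1.18 to 195 TPM in *Firre* rescue. Of the 5 plasma cell markers, all tested, 2 rose and 3 fell in *Firre* rescue against ∆*Firre*, and their part in the difference of *Prdm1* was not tested. *Spi1*, *Irf4* and *Irf1* were not called.

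Of 9 genes of endosomal processing, *Cst3* and *Sppl2a* were called in both rescue comparisons, where 27.9% and 24.3% of all genes were called. *Cst3*, the cathepsin inhibitor cystatin C, stood at 275 to 386 TPM in WT, 275 to 325 TPM in ∆*Firre* and 381 to 501 TPM in *Firre* rescue, and rose by 0.55 ± 0.11 against ∆*Firre* and 0.47 ± 0.11 against WT (SE, limma adjusted p of 0.00638 and 0.0157). *Sppl2a*, the membrane protease that clears the last invariant chain fragment, stood at 61.3, 53, 59.5 and 66.7 TPM in WT, 60, 61.9, 60.7 and 62.4 TPM in ∆*Firre*, and 37.7, 41.3, 42 and 34.1 TPM in *Firre* rescue. The rescue libraries lay below all others, with log2 differences of -0.65 ± 0.10 and -0.62 ± 0.10 (SE, limma adjusted p of 0.0012 and 0.00204). *Ctss*, the cathepsin that trims the invariant chain, was not called, with log2 differences of 0.05, 0.07 and 0.12.

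Of genes for surface turnover, *Marchf8*, a ubiquitin ligase of class II, fell in both rescue comparisons from 5.05 to 10.4 TPM in WT and 5.78 to 7.73 TPM in ∆*Firre* to 1.54 to 2.83 TPM (log2 differences of -1.36 ± 0.26 against ∆*Firre* and -1.27 ± 0.26 against WT, SE, limma adjusted p of 0.00428 and 0.00702), and *Cd83* was not called. *Marchf1*, the class II ligase of B cells and dendritic cells, was too low to be tested, at 0 to 1.72 TPM. Of 6 costimulatory genes, 4 were tested. The PD-1 ligands fell in both rescue comparisons, *Cd274* by 1.19 ± 0.23 and 1.42 ± 0.23 on the log2 scale (SE, limma adjusted p of 0.00494 and 0.00226) and *Pdcd1lg2* by 1.31 ± 0.39 and 1.38 ± 0.39 (adjusted p of 0.0338 and 0.0303). *Cd86* and *Icosl* were not called. *H2-Eb2*, a further class II beta chain gene, stood at 12.2 to 24 TPM and was not called. Over these lists and class I presentation, limma called 0 of 38 genes in ∆*Firre* against WT, where it called 0.0207% of all genes. Limma-voom also called 0 of the 38, but it called 0 of all 14479 genes there. At an unadjusted p under 0.05 in limma, 3 passed (*Nfya*, *Usf1* and *Tap2*, at log2 differences of -0.28, -0.44 and -0.46), where 5.30% of all genes did.

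**Figure D4:**
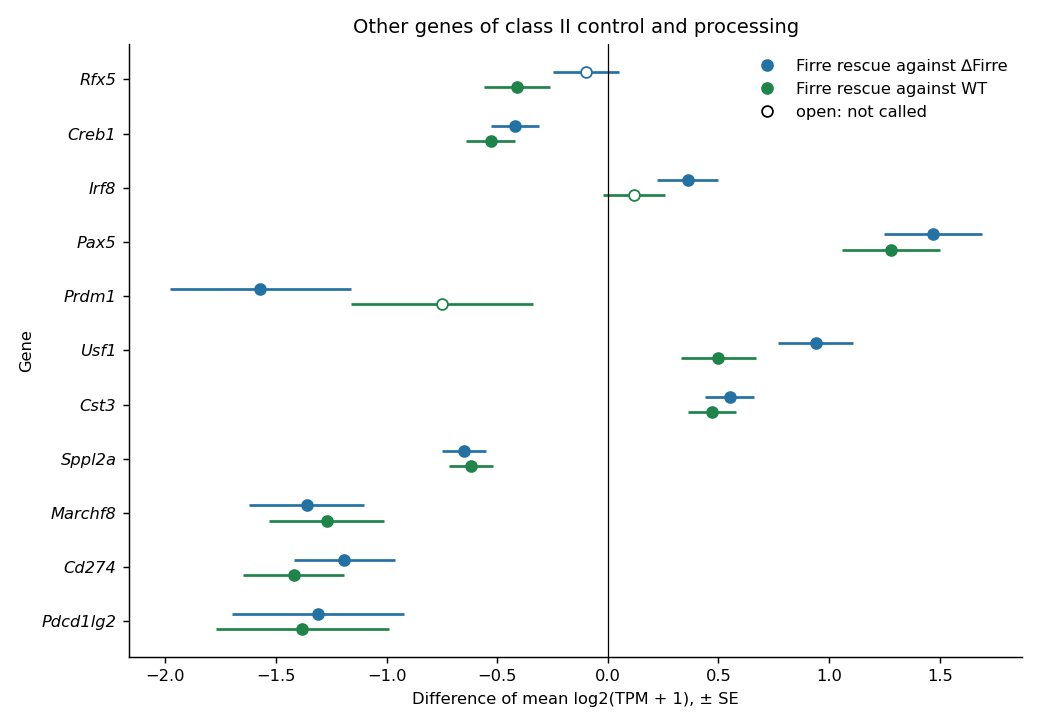
Difference of mean log2(TPM + 1) (x axis, whiskers ± SE) of the genes of class II control, processing, turnover and costimulation called in a rescue comparison, with open points where not called. *Pax5* stands highest at 1.47 and 1.28 and *Prdm1* lowest at -1.57 against ∆*Firre*.

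Genes of MHC class I presentation were read for contrast. Of 8, 5 rose in *Firre* rescue against ∆*Firre* (*H2-K1*, *H2-D1*, *Tap1*, *Tap2* and *Psmb8*, by 0.32 to 0.63 on the log2 scale) and none fell, where 8.58% of all genes tested were called higher. With 1 library left out, the call of *Tap1* was lost in 9 of 12 fits, that of *H2-K1* in 2 and that of *H2-D1* in 1. Against WT only *Psmb8* rose (0.32 ± 0.11, SE, adjusted p = 0.0549 in limma), a call lost in 3 of 12 such fits. *H2-DMa* and *H2-DMb1* moved the same way as these 5 in the first comparison and *Cd74* the other way. Whether class I and class II genes differed in their change was not tested.

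**Figure D5:**
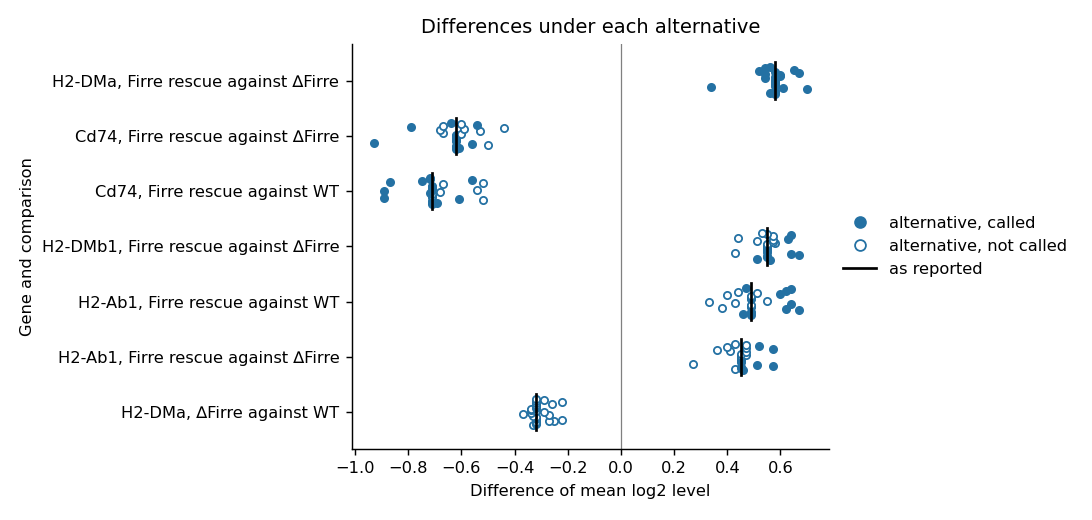
Difference of mean log2 level under each alternative way of processing (1 point each, filled where called, open where not) for the 5 called member results and 2 beside them, with the reported value as a black line. *H2-DMa* in *Firre* rescue against ∆*Firre* is filled throughout, while *Cd74*, *H2-DMb1* and *H2-Ab1* mix filled and open points on 1 side of 0.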

How the data were processed

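CLPs (Lin-, Sca1 low, c-Kit low, IL7Ra+) were sorted, and poly(A) RNA-seq libraries were made with the CATS kit. The authors deposited a table of TPM per gene. Per the labels and the study's methods, reads were trimmed with cutadapt, mapped to mm10 with TopHat2 2.1.1 and Gencode vM9, and counted with featureCounts. Strand and multi-mapping settings are not given in the sources used here. From the deposited TPM, whole reads per gene were recovered, and these give the depths. For this, 100.0% of values above 0 came to a whole number within 0.001 or, for high counts, a tolerance that grew with the count. The length of each gene was itself solved for to give whole numbers, so this share is no independent check. Recovered depths are estimates, since TPM itself keeps none.

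The 14479 genes averaging 1 TPM or more were tested with limma 3.58.1 in R 4.3.3 on log2(TPM + 1), with a trended prior, all 12 libraries in 1 fit, two-sided, Benjamini-Hochberg adjusted. A fold change on this scale understates the change of low genes. On simulated data for ∆*Firre* against WT (14479 genes), the fit called 154 of 200 genes changed 2-fold, 116 of 126 at a mean of 10 TPM or more, 20 unchanged genes, and 0 when none was changed. Every simulated gene had the same dispersion, 0.029, a median taken from these data. These counts therefore do not hold for genes with a wider spread between mice. The members, the gene lists and the markers were chosen with earlier results of these data known. All 10 members are named, as are genes of the pathway lists that were called or that a result turns on, while marker lists are given by counts, sums and examples. In these lists 2 genes are not reported here. Alternatives covered pseudocount, filter, scaling, GC content, groups fitted, threshold, limma-voom on recovered reads, a replicate block, library range and each library left out, and, chosen after seeing the data, WT replicate 6 and ∆*Firre* replicate 8 left out together, the genes with a GC value uncorrected, and TPM without *Firre*, basophil markers and immunoglobulin genes. Each library is 1 mouse, so p-values measure the spread between mice. Columns of the table were matched to samples by name, promoter sequences were taken from RefSeq on GRCm38.p6, and Gencode vM1 gave exon overlaps, coding sequences and exon GC content.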

Additional observations from a re-analysis of the deposited data

Results flagged for a closer look

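In 60 sets of 4 libraries (10 members and 10 ratios or sums in 3 groups), 3 had 1 library far from the others by Dixon's criterion, where chance gives about 1 in 20, or 3.0. *H2-Eb1* in ∆*Firre* replicate 12 stood at 5.23 on the log2(TPM + 1) scale (36.5 TPM), and the other ∆*Firre* libraries at 5.89 to 5.97. The ratio of *H2-DMb1* to *H2-DMb2* in WT replicate 8 was 0.852, and 2.5 to 2.76 in the other WT libraries, for a pair of genes that share much of their sequence. The summed TPM of the 10 members in *Firre* rescue replicate 2 was 875, and 1044 to 1081 in the other rescue libraries.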

How the results depend on the processing

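Across the alternatives, the 777 member values gave 673 with the same direction and side of the threshold, 47 that lost a call, 20 that gained one and 37 that changed sign, and none of the sign changes touched a called value or was itself called. *H2-DMa* in *Firre* rescue against ∆*Firre* was called throughout. The 25 called results of pathway genes kept their direction in all 622 values, 72 of which lost the call, and 13 of the 25 were called throughout.

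Median-ratio rescaling moved the median log2 difference over all genes from -0.16 to -0.05 in *Firre* rescue against ∆*Firre* and from -0.21 to -0.03 against WT, and the split of calls from 1242 higher and 2801 lower to 1889 and 1875, and from 698 and 2814 to 1288 and 1256; quantile normalization gave 2001 and 1732, and 1208 and 1210. Under median-ratio rescaling *Cd74* was no longer called in either rescue comparison (-0.50 and -0.52, limma adjusted p of 0.102 and 0.117), while *H2-DMa* against WT (0.44, adjusted p = 0.00705), *H2-DMb1* against WT (0.69, adjusted p = 0.0493) and *H2-Ab1* against ∆*Firre* (0.57, adjusted p = 0.0419) became calls, so which members were called depended on the scaling.

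The count of genes called in ∆*Firre* against WT (3) was 6 with no filter, 1 with only the 2 groups compared, 0 with limma-voom on recovered reads and 6 without WT replicate 6 and ∆*Firre* replicate 8 together, a setting chosen after seeing the data. It was, for *Firre* rescue against ∆*Firre* (4043), 1990 with GC correction and 2682 at an adjusted p of 0.05, and against WT (3512) it was 2263 with only the 2 groups. Members called in *Firre* rescue against ∆*Firre* (3) numbered 1 with no filter, 1 at an adjusted p of 0.05 and 1 without the 2 libraries together. Against WT (2) they numbered 0 with no filter, 4 with quantile normalization, 1 with GC correction, 0 with only the 2 groups, 0 at an adjusted p of 0.05, 4 with limma-voom and 1 without the 2 libraries together. On the same genes as the GC correction but without it, *Firre* rescue against ∆*Firre* called 3798 genes, and 2 members were called against WT, so the correction itself and not the smaller set of genes moved these counts. For the other settings the cause was not tested.

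With 1 library left out, genes called in ∆*Firre* against WT numbered 1 to 5, in *Firre* rescue against ∆*Firre* 2820 to 4460 and against WT 2670 to 4349, and members called numbered 0, 1 to 4 and 0 to 2. The member log2 differences that changed sign there ranged, in ∆*Firre* against WT, from -0.15 to 0.32 (*H2-Aa*), -0.12 to 0.18 (*H2-Ab1*), -0.26 to 0.08 (*Cd74*), -0.29 to 0.11 (*H2-DMb1*) and -0.57 to 0.06 (*H2-Oa*). For *Firre* rescue against ∆*Firre* they ranged from -0.42 to 0.11 (*H2-Eb1*), -0.11 to 0.23 (*H2-DMb2*), -0.21 to 0.11 (*H2-Oa*) and -0.01 to 0.19 (*H2-Ob*), and against WT from -0.44 to 0.03 (*H2-Aa*), -0.60 to 0.03 (*H2-Oa*) and -0.34 to 0.31 (*Ciita*).

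Other sign changes, all of uncalled values, were in ∆*Firre* against WT *Cd74* (0.04 with GC correction) and *H2-DMb1* (0.02 with median-ratio rescaling, 0.03 with quantile normalization, 0.00 with GC correction, 0.06 without the 2 libraries together). For *Firre* rescue against ∆*Firre* they were *H2-DMb2* (-0.02 with GC correction), *H2-Oa* (0.09 median-ratio, 0.08 quantile, 0.03 limma-voom) and *H2-Ob* (-0.01 without the 2 libraries together). Against WT they were *H2-Aa* (0.00 median-ratio, 0.02 without the 2 libraries together) and *Ciita* (0.05 median-ratio, 0.25 quantile).

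Mouse numbers 8 and 11 occur in WT and in ∆*Firre*, and the deviations of same-numbered libraries correlated at -0.03 and -0.04. So few pairs cannot settle whether these mice were matched, and the sources used here do not say so. With a replicate block on these numbers, 3 genes and 0 members were called in ∆*Firre* against WT, and with the block and GC correction 1 gene, *Cd74* at 0.04 and *H2-DMb1* at 0.00. *Ciita* was left out with a mean TPM of at least 5. *Ciita* had 61 reads in its lowest library, and how far depth limits it was not tested.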
